A study of Sus scrofa with 29 samples.

Results

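Superoxide dismutases, catalase and glutathione peroxidases were examined as 7 genes (SOD1, SOD2, SOD3, CAT, GPX1, GPX3 and GPX4) in the inner lining of 2 pig arteries. All probe sets with 1 of these symbols in the platform annotation were taken. That gave 8 of the 23999 probe sets other than controls, for 7 of the 6765 genes named by a single symbol, and GPX4 had 2 probe sets. The groups were exercised brachial (7 arrays), sedentary brachial (7), exercised internal mammary (8) and sedentary internal mammary (7). The 29 arrays came from 15 healthy pigs, 14 of which gave both arteries. Exercised pigs had run on a treadmill for 16 to 20 weeks, on 5 days a week by week 10, in bouts that had lengthened to 85 min. Their arteries were taken 24 h after the last bout. Sedentary pigs had stayed in their enclosures. The brachial artery supplies the foreleg and the internal mammary artery the chest wall. The comparisons ask whether training changed the lining of either artery and whether the arteries differed. The labels used here give no breed, sex or age. The lining was scraped off as a mixture that they call enriched in endothelium.

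Superoxide is turned into hydrogen peroxide by the dismutases, which sit in the cytosol (SOD1), in the mitochondrial matrix (SOD2) and outside the cell (SOD3). Hydrogen peroxide is removed by catalase in peroxisomes and by the glutathione peroxidases, most of which are selenoproteins. In arteries the dismutases are known for sparing nitric oxide, which superoxide would otherwise consume.

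The array medians ran from 7.13 to 7.28 on the log2 scale, on which all levels below are given, and a difference of 1 is a doubling of intensity. Arrays carry no read depth, and the number of pigs limits the precision. The endothelial markers PECAM1 (13.56 to 14.15), CDH5 (11.87 to 12.73) and NOS3 (12.00 to 12.78) were bright on all arrays, while VWF ran from 6.04 to 12.06 and the KDR probe set from 3.58 to 4.46. Smooth muscle markers were bright too, with ACTA2 at 13.24 to 14.34. In such bulk samples fewer cells of a type and less RNA per cell cannot be told apart. Array counts and ± SD refer to pigs, and ± after a difference is the SE of the limma fit. An adjusted p is that fit's Benjamini-Hochberg value over all 23999 probe sets, with calls at 0.05.

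None of the 8 probe sets passed the limma test for training. The count was 0 of 8 in the brachial artery, where 1.63% of all probe sets passed, and 0 of 8 in the internal mammary artery, where 0.596% passed. For the average over arteries it was 0 of 8 (4.68% of all probe sets), and for the difference of the training effect between the arteries 0 of 8 (0% of all probe sets). At an unadjusted p under 0.05 the limma counts were 2, 1, 2 and 0 of 8 in these comparisons, where 15.4%, 12.3%, 18.5% and 4.31% of all probe sets were under it, so the members' counts were near those shares. The member differences had medians of -0.11 in both arteries, against 0.011 in the brachial artery and 0.0052 in the internal mammary one over all probe sets. Their SEs ran from 0.061 to 0.561. Macrophage markers moved with training in the brachial artery, where 0 of 9 were higher and 3 of 9 lower in exercised pigs (C1QC by -0.81 ± 0.18, FCER1G by -0.88 ± 0.21 and TYROBP by -0.66 ± 0.16, adjusted p = 0.0228, 0.0255 and 0.0259). In the internal mammary artery 0 of 9 passed limma (1 of 9 at an unadjusted p under 0.05). The forest plot of training differences shows the intervals.

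**Figure D1:**
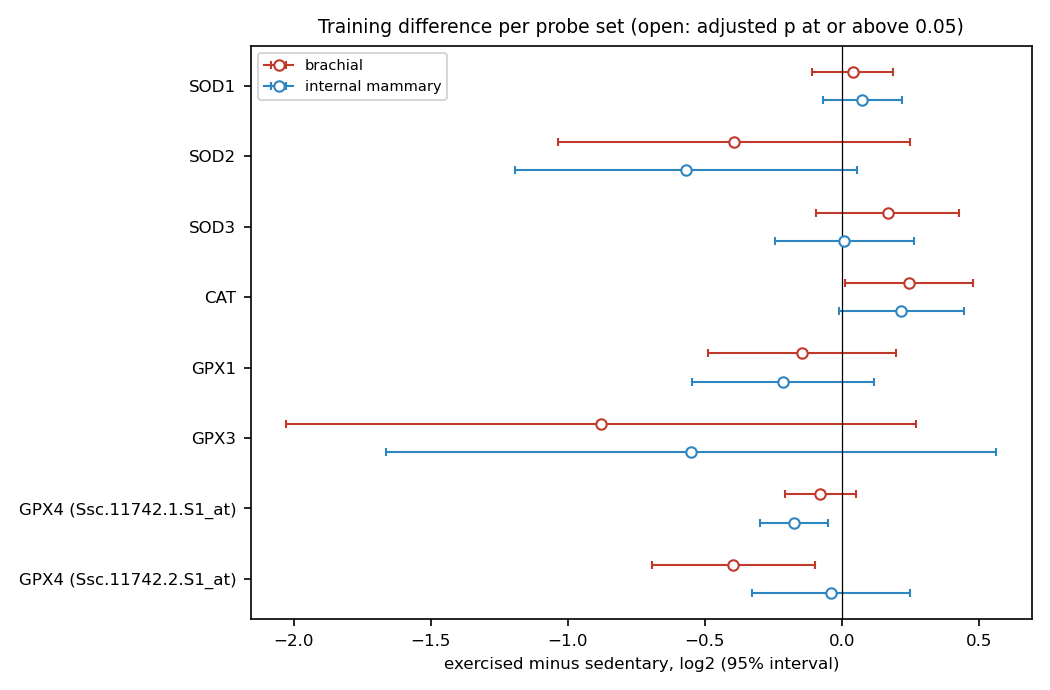
Training difference of each probe set, exercised minus sedentary on the log2 scale, with its 95% interval, in the brachial (red) and the internal mammary artery (blue). All 16 points are open because none passed an adjusted p of 0.05. The intervals are widest for GPX3 and SOD2 and narrow for SOD1 and the first GPX4 probe set.

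Between the arteries more probe sets passed. Averaged over both training groups, 5 of 8 differed between the brachial and the internal mammary artery, where 54.3% of all probe sets did. Within exercised pigs 4 of 8 passed (41.2% of all probe sets), and within sedentary pigs 2 of 8 passed (34.8% of all probe sets). SOD3 and the brighter GPX4 probe set were higher in the brachial artery, and CAT, GPX3 and the dimmer GPX4 probe set were lower there. SOD1, SOD2 and GPX1 did not pass. Every level by pig is drawn in the plot of values by group, and the lines joining the arteries of each pig show the direction within animals.

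**Figure D2:**
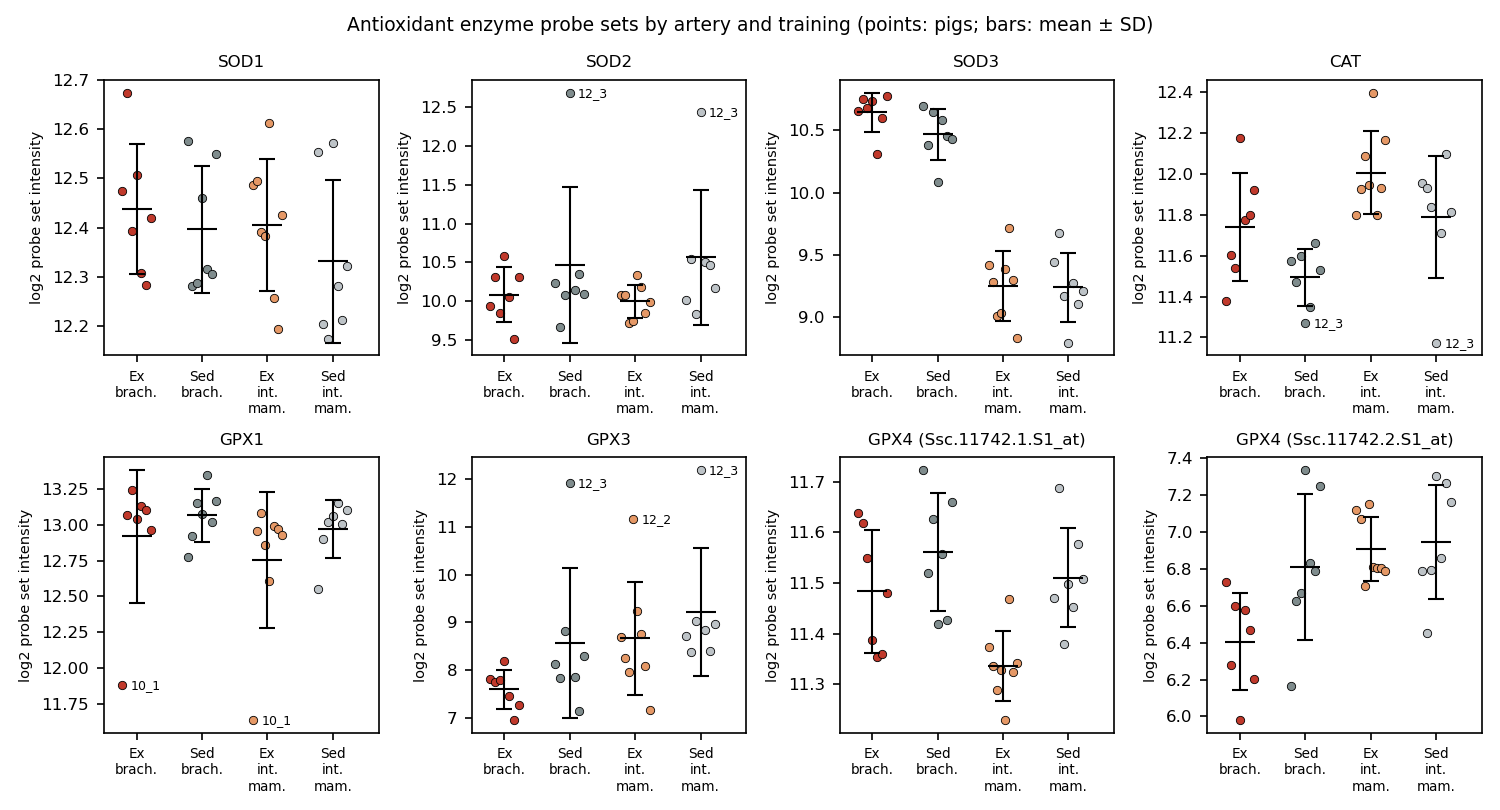
Log2 intensity of the 8 probe sets on each array, with exercised (Ex) beside sedentary (Sed) pigs for the brachial and the internal mammary artery. Bars are mean ± SD, and pigs 12_3, 10_1 and 12_2 are marked where they stand apart. SOD3 of every brachial array lies above every internal mammary array, and SOD2 and GPX3 of pig 12_3 lie far above the rest.

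SOD3, the extracellular dismutase that binds heparan sulphate of the vessel wall, gave the largest artery difference of the 8 probe sets. In exercised pigs it ran from 10.31 to 10.78 in the brachial artery (median 10.68), against 8.84 to 9.72 in the internal mammary artery (median 9.29). In sedentary pigs it ran from 10.08 to 10.70 in the brachial artery (median 10.45), against 8.79 to 9.68 in the internal mammary artery (median 9.21). The arteries did not overlap in either training group, and the brachial value was higher in 14 of 14 pigs. How many of all probe sets were apart in this way is not given here. By limma p for the artery difference, SOD3 ranked 84 of 23999 probe sets in exercised and 107 in sedentary pigs. Averaged over training groups, SOD3 was 2.48-fold higher in the brachial artery, a difference of 1.31 ± 0.077 (adjusted p = 6.82e-14). The exact sign-flip test over pigs gave p = 0.000122, the smallest possible with 14 pigs. The difference was 1.39 ± 0.11 in exercised and 1.23 ± 0.11 in sedentary pigs. Over 30 other settings it stayed between 1.21 and 1.37 and passed in each. The pigs fall into 8 with earlier and 7 with later dates in the labels, and SOD3 differed by 1.34 ± 0.12 within the earlier and 1.29 ± 0.11 within the later ones.

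The SOD3 levels of exercised and sedentary pigs overlapped in both arteries. Exercised minus sedentary gave 0.17 ± 0.13 in the brachial artery (adjusted p = 0.580) and 0.01 ± 0.12 in the internal mammary artery (adjusted p = 0.992). Group means ± SD were 10.65 ± 0.16 in exercised and 10.47 ± 0.21 in sedentary brachial arrays, then 9.25 ± 0.28 in exercised and 9.24 ± 0.28 in sedentary internal mammary arrays. In this order of levels the neighbours within an artery did not pass. The middle pair of groups differs in both artery and training and was not tested.

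Other genes of the dismutase and glutathione peroxidase system were higher in the brachial artery as well. CCS, the copper chaperone of SOD1, differed by 0.47 ± 0.042 between the arteries (adjusted p = 3.8e-10). Among the glutathione peroxidases GPX6 differed by 0.55 ± 0.060, GPX2 by 0.35 ± 0.046 and GPX5 by 0.23 ± 0.063 (adjusted p = 1.61e-08, 4.03e-07 and 0.00333). Signal over background was not measured, so whether these peroxidases are expressed in the lining was not established. A further pair of copper proteins, chosen for mention after their values were seen, passed too. ATP7A, the pump that loads copper into secreted enzymes such as SOD3, gave 0.20 ± 0.076 (adjusted p = 0.0265), and its chaperone ATOX1 gave 0.17 ± 0.053 (adjusted p = 0.00891). Averaged over training groups, 6 of the 7 measured genes of this list were higher in the brachial artery and 0 were lower, where 31.8% of all probe sets were higher and 22.5% lower. GPX7 gave 0.13 ± 0.070 and did not pass. The list had a median difference of 0.23, against 0.031 over all probe sets.

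**Figure D3:**
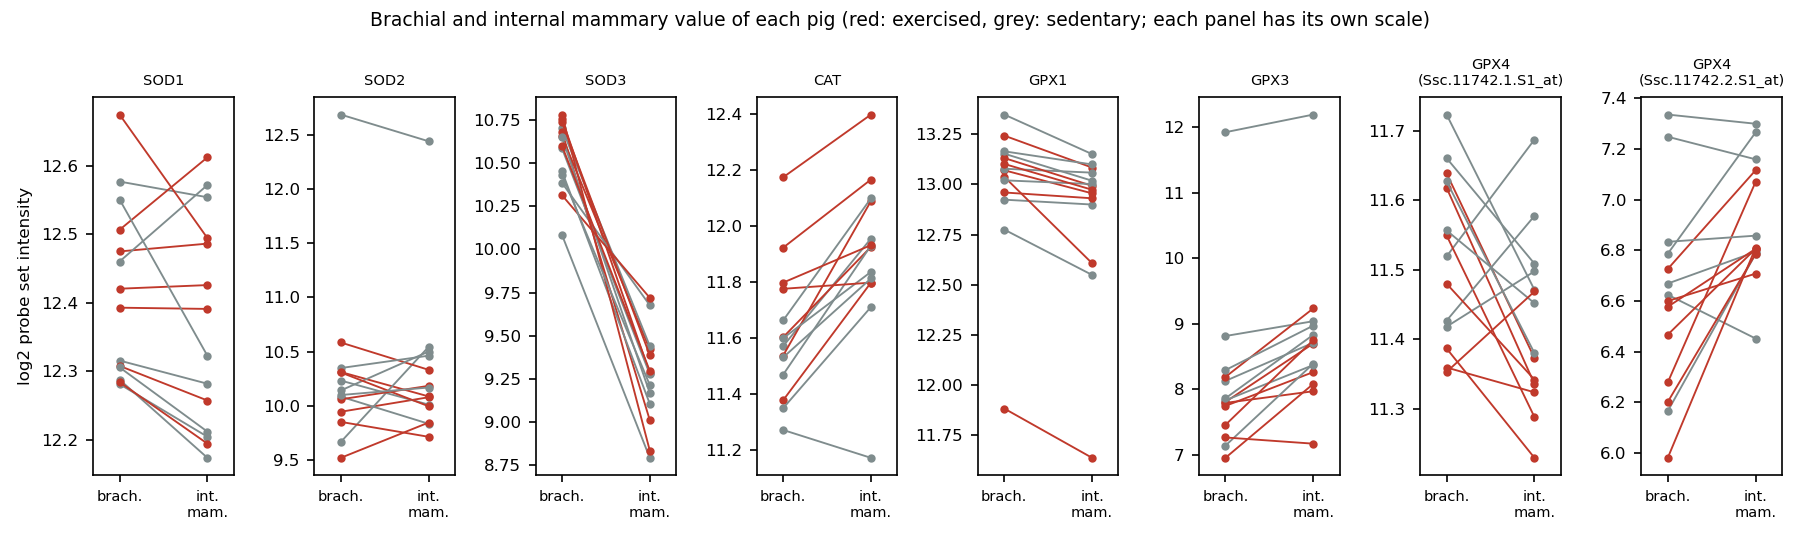
Brachial and internal mammary value of each of the 14 pigs with both arteries, joined by a line (red exercised, grey sedentary), on the log2 scale with a separate axis for each probe set. SOD3 and GPX1 are higher in the brachial artery in 14 of 14 pigs. In the brachial artery the bright GPX4 probe set is higher in 10 of 14 pigs and the dim one lower in 11 of 14.

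SOD1, the cytosolic copper-zinc dismutase, was the steadiest of the dismutases. It ran from 12.28 to 12.67 in exercised (median 12.42), against 12.28 to 12.58 in sedentary brachial arrays (median 12.32). In the internal mammary artery it ran from 12.19 to 12.61 in exercised (median 12.41), against 12.17 to 12.57 in sedentary pigs (median 12.28). All 4 groups overlapped. The training difference was 0.04 ± 0.073 in the brachial artery, with a 95% interval from -0.11 to 0.19. For the internal mammary artery it was 0.07 ± 0.070, with an interval from -0.07 to 0.22. The brachial artery differed from the internal mammary artery by 0.05 ± 0.044 (adjusted p = 0.367). Its SD within groups was 0.141, larger than that of 21.6% of all probe sets.

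SOD2, the manganese dismutase of the mitochondrial matrix and a gene induced through NF-kB in inflammation, had its highest values in a single sedentary pig. It ran from 9.52 to 10.58 in exercised (median 10.06), against 9.67 to 12.69 in sedentary brachial arrays (median 10.14). In the internal mammary artery it ran from 9.71 to 10.33 in exercised (median 10.04), against 9.83 to 12.44 in sedentary pigs (median 10.46). The highest value in both arteries came from sedentary pig 12_3. Exercised minus sedentary gave -0.39 ± 0.31 in the brachial artery (adjusted p = 0.605) and -0.57 ± 0.30 in the internal mammary artery (adjusted p = 0.468, unadjusted exact permutation p = 0.0314). Without pig 12_3 these were -0.02 ± 0.15 and -0.26 ± 0.14 (adjusted p = 0.969 and 0.556). The arteries differed by -0.01 ± 0.19, and the brachial value was the higher one in 4 of 7 exercised and 3 of 7 sedentary pigs. The SD of SOD2 within groups was 0.682, larger than that of 97.6% of all probe sets.

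Of the mitochondrial list that goes with SOD2, 1 of 8 measured genes passed for training in each artery. It was SIRT3, the matrix deacetylase known to activate SOD2. Its difference between exercised and sedentary pigs was 0.56 ± 0.093 in the brachial artery (adjusted p = 0.00405) and 0.42 ± 0.090 in the internal mammary artery (adjusted p = 0.0267). PRDX5, a peroxiredoxin found in mitochondria and peroxisomes, was the single gene of 13 measured peroxiredoxins and thioredoxins that passed in the brachial artery, by 0.72 ± 0.15 (adjusted p = 0.0119). PRDX5 in the internal mammary artery gave 0.50 ± 0.14 (adjusted p = 0.101). SIRT3 and PRDX5 also passed on average over the arteries (0.49 ± 0.072 and 0.61 ± 0.11), where 4.68% of all probe sets did. These are single calls in lists that carry no test of the list, and nothing about SOD2 is read from them. In the list of other members and in those of glutathione synthesis and NRF2 targets, superoxide sources, selenoproteins, the peroxisome and NF-kB targets, 0 genes passed limma for training in either artery. At an unadjusted p under 0.05 these lists gave 1 of 7, 3 of 13, 3 of 8, 1 of 5, 4 of 11 and 3 of 11 genes in the brachial artery, then 0 of 7, 1 of 13, 1 of 8, 0 of 5, 2 of 11 and 2 of 11 in the internal mammary artery. Of all probe sets 15.4% were under it in the brachial and 12.3% in the other artery, and nothing particular to these lists is read from the counts.

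The genes of smallest p in these lists show how near they came. In the brachial artery CCS gave 0.19 ± 0.070 and GPX2 0.11 ± 0.076 between exercised and sedentary pigs (adjusted p = 0.162 and 0.552). MGST1, a microsomal glutathione transferase, gave 0.55 ± 0.17 and HMOX1, the inducible heme oxygenase, -0.25 ± 0.082 (adjusted p = 0.0812 and 0.109). RAC2 and NCF1, parts of the phagocyte oxidase, gave -0.52 ± 0.16 and -0.29 ± 0.11 (adjusted p = 0.0812 and 0.168), in the artery where the macrophage markers C1QC, FCER1G and TYROBP were lower in exercised pigs, and the part of macrophages in these values was not tested. SEPW1 and SEPHS2 gave 0.27 ± 0.0997 and -0.16 ± 0.089, and the peroxisomal ABCD3 and PEX2 0.27 ± 0.097 and 0.22 ± 0.092. For the cytokines IL6 and CCL2 the brachial differences were 1.19 ± 0.42 and -1.23 ± 0.50 (adjusted p = 0.144 and 0.217), and those of the internal mammary artery 1.03 ± 0.41 and -1.24 ± 0.49 (adjusted p = 0.271 and 0.258). IL6 passed on average over the arteries, at 1.11 ± 0.33 (adjusted p = 0.0479). Internal mammary differences of smallest p in the other lists were 0.13 ± 0.068 for CCS, 0.13 ± 0.11 for GPX7, 0.20 ± 0.087 for GSR and 0.14 ± 0.072 for GSS. They were 0.17 ± 0.084 for CYBA, 0.08 ± 0.083 for RAC1, 0.13 ± 0.097 for SEPW1 and -0.08 ± 0.086 for SEPHS2. PXMP4 gave 0.27 ± 0.088 and PEX7 0.32 ± 0.13.

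CAT, which breaks down hydrogen peroxide in peroxisomes, had positive training differences that did not pass. In the brachial artery it ran from 11.38 to 12.17 in exercised (median 11.78), against 11.27 to 11.66 in sedentary pigs (median 11.53). In the internal mammary artery it ran from 11.80 to 12.40 in exercised (median 11.94), against 11.17 to 12.10 in sedentary pigs (median 11.84). In the brachial artery 4 of 7 exercised arrays lay above all sedentary arrays, and the groups overlapped in both arteries. Exercised minus sedentary was 0.25 ± 0.11 in the brachial artery (adjusted p = 0.294, unadjusted exact permutation p = 0.0460). The internal mammary difference was 0.22 ± 0.11 (adjusted p = 0.434, unadjusted exact permutation p = 0.114). The average was 0.23 ± 0.089 (adjusted p = 0.137), and the arteries' training effects differed by 0.03 ± 0.14. Without pig 12_3, which had the lowest CAT of its artery in both arteries, the average was 0.16 ± 0.077 (adjusted p = 0.272). The brachial difference was 0.03 ± 0.16 within the 8 pigs dated earlier and 0.40 ± 0.14 within the 7 dated later. That of the internal mammary artery was 0.22 ± 0.15 and 0.20 ± 0.14 in the same periods. When the mean of the macrophage markers entered the fit of all pigs, the brachial difference was 0.09 ± 0.14 (adjusted p = 0.854). That mean was lower in exercised (-0.35) than in sedentary brachial arrays (0.13), so the covariate is not independent of training there. The part of macrophages in the CAT values was not tested.

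Between arteries CAT was lower in the brachial lining. The difference averaged -0.28 ± 0.069 (adjusted p = 0.00112), with lower brachial values in 13 of 14 pigs and the exception in pig 12_3. The exact sign-flip test gave p = 0.000366. The difference was -0.27 ± 0.096 in exercised (adjusted p = 0.0271) and -0.29 ± 0.099 in sedentary pigs (adjusted p = 0.0212). In exercised pigs the call was lost without pig 10_1, 10_5 or 11_3 (adjusted p = 0.0641, 0.0628 and 0.0991), and in sedentary pigs without 13_2 or 15_1 (adjusted p = 0.0527 and 0.0522). Averaged over training groups it passed within both date periods, but within exercised pigs it was -0.43 ± 0.15 in those dated earlier and -0.16 ± 0.11 in those dated later (adjusted p = 0.0460 and 0.323). Within sedentary pigs it was -0.25 ± 0.13 and -0.36 ± 0.13 in the same periods (adjusted p = 0.228 and 0.0763). Of the 11 measured genes of the peroxisome list, 2 were higher and 3 lower in the brachial artery, where 31.8% of all probe sets were higher and 22.5% lower, so the share of the list that passed was not above the 54.3% of all probe sets. The higher ones were PEX14, a docking protein of peroxisomal import (0.47 ± 0.037, adjusted p = 2.32e-11), and PEX16 (0.12 ± 0.041). The lower ones included PEX13 (-0.33 ± 0.063) and PEX3 (-0.26 ± 0.069). The list median was -0.011, against 0.031 over all probe sets.

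GPX1, the abundant intracellular glutathione peroxidase, was a little higher in the brachial artery of each pig, but the difference did not pass in limma. In exercised pigs it ran from 11.88 to 13.24 in the brachial artery (median 13.07), against 11.64 to 13.08 in the internal mammary artery (median 12.94). In sedentary pigs it ran from 12.78 to 13.35 in the brachial artery (median 13.08), against 12.55 to 13.15 in the internal mammary artery (median 13.02). The groups overlapped, with exercised pig 10_1 lowest in both arteries. The limma difference with pig as a random block was 0.13 ± 0.10 (adjusted p = 0.277). Within pigs the brachial value was higher in 7 of 7 exercised pigs, by 0.18 ± 0.13 (SD), and in 7 of 7 sedentary pigs, by 0.10 ± 0.088 (SD). The exact sign-flip test gave p = 0.000122, the smallest possible. With pig as a fixed block the difference was 0.14 ± 0.036 (adjusted p = 0.00489), so the call for GPX1 turned on how the pairing was modelled. It also passed without pig 10_1, at 0.14 ± 0.052 (adjusted p = 0.0311).

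For training GPX1 gave -0.14 ± 0.17 in the brachial artery (adjusted p = 0.750) and -0.21 ± 0.16 in the internal mammary artery (adjusted p = 0.658). Without exercised pig 10_1 these were 0.02 ± 0.086 and -0.05 ± 0.083. In that pig GPX1 was 2.28-fold below the median of the other pigs in the brachial artery and 2.55-fold below it in the internal mammary one. Its other 7 probe sets of the family lay within the range of the other pigs in both arteries.

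GPX3, the secreted peroxidase of plasma, varied more among pigs than any other member. In exercised pigs it ran from 6.95 to 8.19 in the brachial artery (median 7.74), against 7.17 to 11.16 in the internal mammary artery (median 8.48). In sedentary pigs it ran from 7.14 to 11.92 in the brachial artery (median 8.12), against 8.37 to 12.19 in the internal mammary artery (median 8.83). Sedentary pig 12_3 was highest in both arteries, and the 11.16 came from exercised pig 12_2, which had no brachial array. The SD within groups was 1.205, larger than that of 99.7% of all probe sets. GPX3 was lower in the brachial artery by 0.81 ± 0.34 on average (log2 difference -0.81, adjusted p = 0.0444). The brachial value was lower in 6 of 7 exercised and 7 of 7 sedentary pigs, with an exact sign-flip p of 0.000244. With pig as a fixed block the difference was -0.68 ± 0.11 (adjusted p = 0.00013).

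The GPX3 artery call in the random block fit was fragile. Leaving out pig 10_1, 10_2, 10_5, 11_4, 12_2, 12_5, 13_2, 14_3, 15_1, 15_2 or 17_1 raised the adjusted p to between 0.0530 and 0.0739, while the difference stayed between -0.68 and -0.85. Without pig 12_3 it was -0.85 ± 0.24 (adjusted p = 0.00403), and within exercised pigs the difference of -0.98 ± 0.47 (adjusted p = 0.09997) became -0.99 (adjusted p = 0.0147). Pig 12_3 is sedentary and entered the exercised comparison only through the shared estimates of spread and pig correlation. The 7 exercised pigs with both arteries had a mean within-pig difference of -0.71. The average difference was -0.76 ± 0.62 within the pigs dated earlier and -0.91 ± 0.24 within those dated later (adjusted p = 0.350 and 0.0115). Of the macrophage markers 1 of 9 was higher and 5 of 9 were lower in the brachial artery on average, where 31.8% of all probe sets were higher and 22.5% lower. In exercised pigs the counts were again 1 and 5 of 9, where 24.2% of all probe sets were higher and 17% lower. In sedentary pigs 1 of 9 was higher and 0 were lower, where 20.5% of all probe sets were higher and 14.2% lower. By the same limma test GPX3 did not pass in sedentary pigs either, at -0.65 ± 0.485 (adjusted p = 0.318). The macrophage marker mean, relative to all arrays, ran from -0.57 to -0.10 in exercised and from -0.22 to 0.66 in sedentary brachial arrays. Internal mammary arrays ran from -0.24 to 0.39 in exercised and from -0.16 to 0.55 in sedentary pigs. With that mean as a covariate the GPX3 artery difference was -0.32 ± 0.34 on average (adjusted p = 0.462), 0.07 ± 0.55 in exercised pigs and -0.72 ± 0.43 in sedentary pigs. The part of macrophages in it was not tested. For training GPX3 gave -0.88 ± 0.56 in the brachial (adjusted p = 0.489) and -0.55 ± 0.54 in the internal mammary artery (adjusted p = 0.755). Without pig 12_3 these were -0.34 ± 0.38 and -0.05 ± 0.37. The brachial value was 0.26 ± 0.63 with the macrophage covariate (adjusted p = 0.918), which is not independent of training in that artery.

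GPX4, which reduces lipid peroxides in membranes, was read by a bright and a dim probe set that went opposite ways between the arteries. The bright one ran from 11.35 to 11.64 in exercised brachial arrays (median 11.48), against 11.23 to 11.47 in exercised internal mammary arrays (median 11.33). In sedentary pigs it ran from 11.42 to 11.72 in the brachial artery (median 11.56), against 11.38 to 11.69 in the internal mammary artery (median 11.50). It was higher in the brachial artery by 0.10 ± 0.038 on average (adjusted p = 0.0289) and by 0.15 ± 0.053 in exercised pigs (adjusted p = 0.0274). In sedentary pigs the difference was 0.05 ± 0.054 (adjusted p = 0.496). The average call was lost with pig as a fixed block (adjusted p = 0.0863) and without pig 10_1, 10_2, 10_5, 11_3, 11_4, 13_2 or 17_1 (adjusted p = 0.0551 to 0.0793). With the 28S/18S ratio of the RNA, a label that reports integrity, as a covariate it was 0.04 ± 0.038 (adjusted p = 0.470). That ratio averaged 1.41 ± 0.17 in exercised and 1.38 ± 0.20 in sedentary brachial samples, then 1.33 ± 0.084 in exercised and 1.19 ± 0.076 in sedentary internal mammary samples (SD). The difference was 0.17 ± 0.059 within the pigs dated earlier and 0.04 ± 0.051 within those dated later (adjusted p = 0.0384 and 0.528). In exercised pigs the call was lost without 10_1, 10_5 or 11_3 (adjusted p = 0.0818 to 0.0937).

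The dim probe set had group means of 6.40 to 6.95, below the array medians. It ran from 5.98 to 6.73 in exercised brachial arrays (median 6.47), against 6.71 to 7.15 in exercised internal mammary arrays (median 6.81). In sedentary pigs it ran from 6.16 to 7.34 in the brachial artery (median 6.79), against 6.45 to 7.30 in the internal mammary artery (median 6.86). It was lower in the brachial artery by a log2 difference of -0.31 ± 0.088 on average (adjusted p = 0.00347) and -0.49 ± 0.12 in exercised pigs (adjusted p = 0.00198), where 7 of 7 pigs agreed in direction. In sedentary pigs it gave -0.14 ± 0.13 (adjusted p = 0.427). With the macrophage mean as a covariate the average was -0.12 ± 0.068 (adjusted p = 0.132), and the part of macrophages was not tested. Without that covariate the average was -0.30 ± 0.15 within the pigs dated earlier and -0.32 ± 0.093 within those dated later (adjusted p = 0.118 and 0.0179). Over the 29 arrays, with each artery's mean removed, the 2 GPX4 probe sets had a correlation of 0.030, so a direction for the gene cannot be given from both.

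For training, neither GPX4 probe set passed in either artery. The bright one gave -0.17 ± 0.061 in the internal mammary artery (adjusted p = 0.192, unadjusted exact permutation p = 0.0014) and -0.08 ± 0.063 in the brachial artery (adjusted p = 0.606). In the internal mammary artery the difference was -0.18 ± 0.087 in the 8 pigs dated earlier and -0.17 ± 0.086 in the 7 dated later. When the 28S/18S ratio entered the fit, the bright probe set gave -0.24 ± 0.057 in that artery (adjusted p = 0.0333). That ratio ran from 1.25 to 1.47 in exercised and from 1.07 to 1.29 in sedentary internal mammary samples. This covariate is therefore not independent of training there. The dim one gave -0.40 ± 0.15 in the brachial artery (adjusted p = 0.159, unadjusted exact permutation p = 0.0443) and -0.04 ± 0.14 in the internal mammary artery (adjusted p = 0.954). With the macrophage mean as a covariate the brachial difference of the dim one was 0.05 ± 0.12 (adjusted p = 0.924). That mean averaged -0.35 in exercised and 0.13 in sedentary brachial arrays, so the covariate is not independent of training there. In that artery 3 of 9 macrophage markers were lower in exercised pigs, where 0.613% of all probe sets were lower. The part of macrophages in the GPX4 values was not tested. Without that covariate the dim probe set gave -0.16 ± 0.23 in the pigs dated earlier and -0.65 ± 0.16 in those dated later. Its training effects differed between the arteries by -0.36 ± 0.18 (adjusted p = 0.9998).

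Sedentary pig 12_3 stood apart in several members at once. SOD2 was 12.69 in its brachial and 12.44 in its internal mammary artery, against at most 10.58 and 10.54 in the other pigs. That is 6.02-fold and 5.13-fold above the median of the others. GPX3 was 17.4-fold and 11.2-fold above the median of the others in the same arteries. In both arteries SOD2, GPX3 and the dim GPX4 probe set were above all other pigs, CAT and SOD3 were below all others, and SOD1, GPX1 and the bright GPX4 probe set were within their range. The scatter of GPX3 and CAT against SOD2 shows both arrays of this pig apart from the rest.

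**Figure D4:**
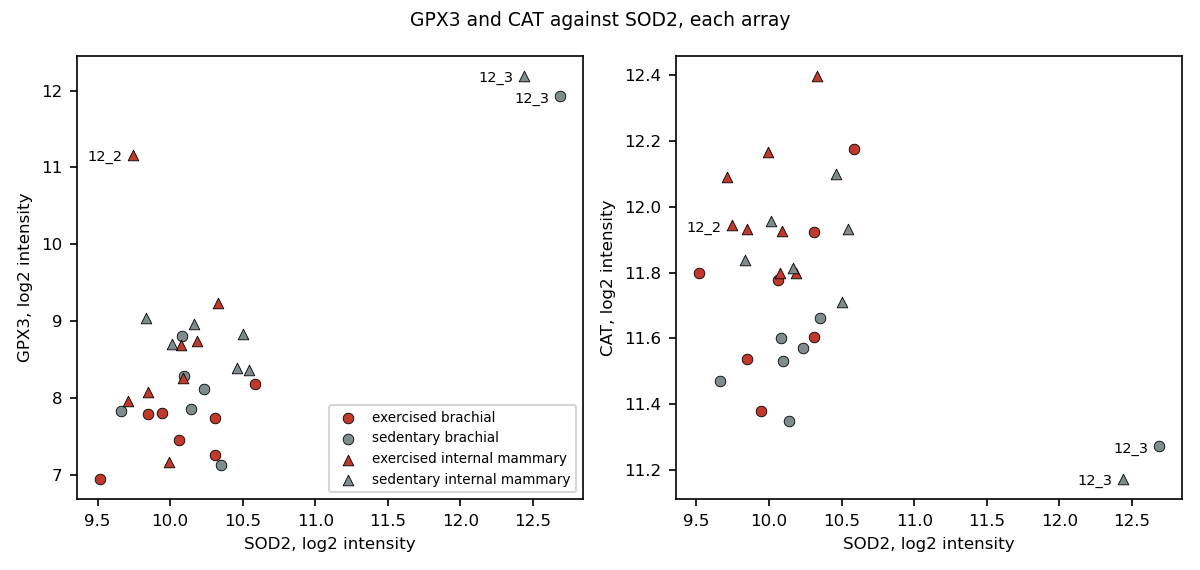
GPX3 (left) and CAT (right) against SOD2 on each of the 29 arrays, in log2 intensity, with circles for brachial and triangles for internal mammary arrays, red for exercised and grey for sedentary pigs. Pig 12_3 lies at high SOD2, high GPX3 and low CAT in both arteries, and pig 12_2 has high GPX3 without high SOD2.

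Other NF-kB targets were high in pig 12_3 as well. Of the 11 measured genes of that list beside SOD2, 7 were above all other pigs in its brachial and 5 in its internal mammary artery, and 0 were below. Of all probe sets 11.7% and 13.5% were above all other pigs on the same arrays. SELE, an endothelial adhesion molecule for leukocytes, was 8.97 in the brachial artery of this pig and at most 5.88 in the others, and 7.06 in the internal mammary artery against at most 5.95. CCL2, a monocyte attractant, was 11.44 and 10.88 in the same arteries, against at most 9.91 and 10.03. IL6 lay within the range of the others in both. Macrophage markers were above all other pigs in 4 of 9 genes in its brachial and 1 of 9 in its internal mammary artery, the second count being near the 13.5% of all probe sets. For the neutrophil markers the counts were 1 of 2 and 0 of 2. The part of these cells in the SOD2 and GPX3 values was not tested.

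**Figure D5:**
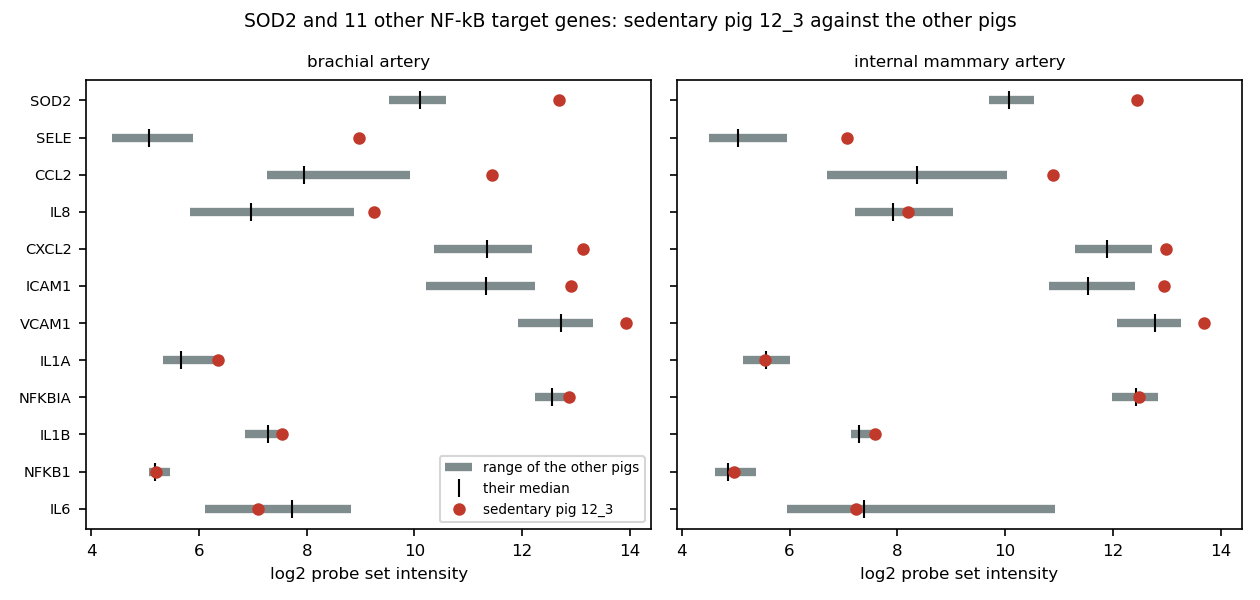
Log2 intensity of SOD2 and 11 other NF-kB target genes in sedentary pig 12_3 (red points), with the range (grey bars) and the median (black ticks) of the other pigs, in the brachial (left) and the internal mammary artery (right). SOD2, SELE, CCL2, CXCL2, ICAM1 and VCAM1 lie above the grey bars in both arteries, while IL6 lies inside them.

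Pigs kept their rank between the arteries for some members and not for others. Over the 14 pigs with both arteries, 8 such relations were computed, with unadjusted permutation p-values. GPX1 gave Pearson's r = 0.959 (p = 0.00011) and Spearman's rho = 0.895 (p = 7e-05), and r was 0.607 without the 2 pigs farthest from the brachial median. SOD1 gave r = 0.789 (p = 0.0013) and rho = 0.846 (p = 0.00037), and 0.798 without its 2 farthest pigs. CAT gave r = 0.774 (p = 0.00178) and rho = 0.701 (p = 0.00684), then 0.607. GPX3 gave r = 0.933 (p = 0.00039) and rho = 0.811 (p = 0.00056), then 0.637. For SOD2 r was 0.895 (p = 0.0137) and rho 0.429 (p = 0.129), and r was 0.090 without pigs 12_3 and 15_2, so the relation rested on those. SOD3 gave r = -0.005 (p = 0.986) and rho = -0.077 (p = 0.798), and its brachial level did not follow its internal mammary level from pig to pig. The bright GPX4 probe set gave r = 0.077 (p = 0.793) and rho = 0.178 (p = 0.543). The dim one gave r = 0.536 (p = 0.0488) and rho = 0.57 (p = 0.037), then 0.189 without its 2 farthest pigs.

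Genes whose pattern was most like each member were ranked by Pearson's r over the 29 arrays after each artery's mean was removed. The arrays share pigs, so these values are descriptions. GPX3 was followed by a probe set of CAPNS1, the small calpain subunit, at r = 0.990, and at 0.974 without pig 12_3. That CAPNS1 probe set read 13.54 and 13.85 in the arteries of pig 12_3 and 12.92 in pig 12_2, against at most 10.69 and 11.19 in the others. The other CAPNS1 probe set had r = -0.026 with GPX3. PPID (0.859) and ITGB3 (0.850) came next, and without pig 12_3 these were 0.519 and 0.500. The other PPID probe set had r = -0.365 with GPX3. For SOD2 the nearest genes were POLR1C (0.917), RCL1 (0.908) and WDR12 (0.893), and without pig 12_3 these were 0.426, 0.567 and 0.346. For GPX1 they were LOC100738134 (0.807), ZNF382 (0.742) and PTH1R (0.739), which were 0.139, 0.025 and 0.221 without pig 10_1.

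The other members had neighbours that depended less on 1 pig. SOD3 was nearest to EML2 (0.803), ACP6 (0.794) and RAB34 (0.790), and SOD1 to C14H22orf39 (0.806), RAC1 (0.784) and TPD52L2 (0.769). CAT was nearest to YPEL5 (0.833), WIPI1 (0.807) and CEBPZOS (0.788), and bright GPX4 to SEPT8 (0.801), MRPL52 (0.801) and TPI1 (0.789). Without pig 12_3 these 12 values lay between 0.681 and 0.817. With the artery means kept, EML2, ACP6 and RAB34 gave 0.301, 0.259 and 0.479 with SOD3. These genes did not pass in limma between the arteries on average (adjusted p = 0.874, 0.985 and 0.255). Further probe sets of some of the 12 genes followed the member less closely. They gave 0.361 for EML2, 0.460 for TPD52L2, 0.579 for YPEL5 and 0.163 for WIPI1. Those of SEPT8 and MRPL52 gave 0.605, then 0.490 and 0.239. Among the members themselves the largest value was 0.756 for SOD2 with GPX3, and the lowest was -0.581 for SOD3 with the dim GPX4 probe set. Pig 12_3 lay beyond all other pigs in both arteries in each of these probe sets. No value without it is given for these pairs, so how far they rest on this pig is not known.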

How the data were processed

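The values are log2 probe set intensities of porcine single-colour arrays, as deposited by the authors, with affy named in the submitters' processing notes. The background correction, summary and normalization are not given in the sources used here, and no scanner files were used, so signal over background was not measured. Of 24123 probe sets, 124 controls were left out. Symbols came from the platform annotation (10069 probe sets with 1 symbol, 198 with several, 13732 with none). All 8 member probe sets had an Entrez identifier of the same current symbol. No sequences or coordinates were used.

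Titles and the treatment tag gave the groups. For 8 internal mammary samples titled as exercised, the source field says sedentary, and the titles were followed. The design text names a brachial array as the unpaired one, while the labels leave pig 12_2 with an internal mammary array alone. The labels name the pig of each sample, so samples of a group are different animals. The members, the lists and the rule for named genes were chosen with earlier results of these data known. The rule names all members, up to 4 genes of a list that pass (smallest p first), and the 3 nearest genes of each member.

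The log2 values were fitted with limma 3.58.1 (R 4.3.3), using 4 group means, a random block for the pig whose consensus correlation was 0.255, moderated tests and Benjamini-Hochberg adjustment over 23999 probe sets. The labels state that both arteries came from the same pig. With group means removed, the correlation of a pig's own pair of arrays had a median of 0.190, against -0.0230 between different pigs. The own-pair values ran from -0.367 to 0.742. For 7 of 14 pigs the brachial array was closest to the internal mammary array of the same pig, so the pairing rests on the labels. Single probe sets were also tested by two-sided exact permutation or sign-flip tests over pigs (48 tests, unadjusted). Correlations between arteries used 1e+05 resamples. A list gene was represented by its brightest probe set. The 8 lists of pathways and 9 of markers carry no test of the list. Supporting software comprised jsonlite 2.0.0, statmod 1.5.0 and, for plotting, matplotlib 3.10.9 under Python 3.11.15. The fitting code was checked on simulated data. Alternatives were no or a fixed pig block, filtering of dim probe sets, repeated normalization, array weights, a trended robust prior, covariates, periods by label date (the labels do not say what the date is of), and each pig left out. Leaving out pigs 10_1 and 12_3 together was chosen after seeing the data.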

Additional observations from a re-analysis of the deposited data

Results flagged for a closer look

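In 9 combinations of a probe set and a group, 1 pig was so far from its nearest neighbour, relative to the range of the group, that it passed Dixon's 95% limit for its group size. Chance gives about 1 in 20 groups of this kind, and 32 were examined. Sedentary pig 12_3 accounts for 5 of them: SOD2 at 12.69 in the brachial artery and 12.44 in the internal mammary one, GPX3 at 11.92 and 12.19, and CAT at 11.17 in the internal mammary artery. Exercised pig 10_1 accounts for 2, with GPX1 at 11.88 in the brachial artery and 11.64 in the internal mammary one. GPX1 of sedentary pig 10_2 in the internal mammary artery (12.55) and SOD3 of exercised pig 14_3 in the brachial artery (10.31) were the remaining low values. All of these arrays were kept in the fits.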

How the results depend on the processing

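Across 30 other settings no called difference of a member changed sign. With 5 of 8 members differing between arteries on average, the count was 3 with no replicate block, 3 with the 28S/18S covariate, 2 with the macrophage covariate, 3 in the 8 pigs dated earlier, and 3 to 5 when 1 pig was left out (3 without 10_2, 10_5, 11_4, 13_2 or 17_1). In exercised pigs the count of 4 became 2 with no replicate block, with the macrophage covariate and in the 7 pigs dated later, and 2 to 5 with 1 pig left out (2 without 10_1, 10_5 or 11_3). In sedentary pigs the count of 2 became 1 with no replicate block, with the 28S/18S covariate and in either date period, and 1 to 2 with 1 pig left out (1 without 13_2 or 15_1). For training the count of 0 became 1 in the internal mammary artery and 1 on average with the 28S/18S covariate, the bright GPX4 probe set in both. The 28S/18S ratio was not independent of training in the internal mammary artery. The cause was not tested. The share of all probe sets that passed in each of these settings is not given here. Nothing particular to the members is read from the changed counts. Of the 48 exact tests 20 were under 0.05, and 14 to 21 with 1 pig left out. For training they were 2 of 8 in each artery, and 0 of 8 for the difference of these effects. Between arteries they were 6 of 8 in exercised pigs, 4 of 8 in sedentary pigs and 6 of 8 on average, which reuses the same pigs. The exact tests cover the members alone, so no share of all probe sets stands beside these counts. The SOD3 artery call held in all settings. Precision is limited by 7 or 8 pigs a group, and for dim probe sets by the unknown background.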

Other observations

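Single genes of other antioxidant lists differed between the arteries, as 54.3% of all probe sets did. GSTA1, a glutathione transferase, was higher in the brachial artery by 0.54 ± 0.037 (adjusted p = 1.61e-12), and SEPW1, a small selenoprotein, by 0.62 ± 0.060 (adjusted p = 1.65e-09). PRDX3, the mitochondrial peroxiredoxin, was lower there by a log2 difference of -0.22 ± 0.038 (adjusted p = 2.83e-05), as were TXNRD1, a thioredoxin reductase (-0.39 ± 0.12, adjusted p = 0.00984), and HMOX1, the inducible heme oxygenase (-0.18 ± 0.050, adjusted p = 0.00286). UCP2, a mitochondrial carrier, was higher by 0.64 ± 0.12 (adjusted p = 4.67e-05), and TFAM, a factor of mitochondrial DNA, was lower (-0.24 ± 0.039, adjusted p = 9.46e-06). FTH1 (0.12 ± 0.025), HMOX2 (0.16 ± 0.054), TXN (0.19 ± 0.051), PRDX5 (0.23 ± 0.089), PPARGC1A (0.20 ± 0.044), DIO2 (0.30 ± 0.064) and DUOX2 (0.22 ± 0.075) were higher too. In the NF-kB list NFKB1 was higher (0.31 ± 0.051) and CXCL2 (-0.66 ± 0.19) and IL8 (-0.71 ± 0.26) were lower. Of the 13 measured genes of glutathione synthesis and NRF2 targets 4 were higher and 3 lower, and of the 13 peroxiredoxins and thioredoxins 2 were higher and 2 lower, where 31.8% of all probe sets were higher and 22.5% lower, so in neither list was the share that passed above that of all probe sets. CYBB, the catalytic subunit of the phagocyte oxidase, was lower in the brachial artery (-0.47 ± 0.13, adjusted p = 0.00388).

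Pig 12_3 was beyond all other pigs of the same artery in 20.6% of all probe sets in the brachial artery and 24.0% in the internal mammary one, where the medians over pigs were 13.2% and 10.8%. Pig 10_1 gave 21.1% and 18.5%. The highest share, 29.1%, was the internal mammary array of sedentary pig 11_1.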
